A study of Mus musculus with 12 samples.

Results

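The monocyte chemoattractant proteins (MCPs) of the mouse are encoded by Ccl2, Ccl7, Ccl12 and Ccl8, 4 neighbouring genes of chromosome 11, and their transcripts were followed through RNA sequencing of macrophages that were differentiated from bone marrow in vitro. The 4 genes were taken by symbol from a table of 48440 genes, and all 4 passed the filter on low counts, which kept 16292 genes. The libraries carry the genotype label WT or CKO. The labels do not spell out the second, nor a strain, sex, age, or Cre driver, and the series title names IRF8. Cells of each genotype were left untreated, or were given interferon-γ (IFN-γ, 100 U/mL) or interleukin-4 (IL-4, 20 ng/mL) for 24 h. The 12 libraries thus form 6 groups of 2 libraries. No label ties the 2 libraries of a group to separate animals or cultures, so the p-values measure the spread between these libraries, which may be technical.

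MCPs are secreted CC chemokines, small proteins with a pair of adjacent cysteines near the amino terminus. They draw monocytes out of marrow and blood into tissue, mainly through the receptor CCR2. Ccl2 encodes MCP-1, the best known CCR2 ligand; Ccl7 encodes MCP-3, which also acts on CCR1 and CCR3; Ccl12 encodes the mouse protein MCP-5, a CCR2 ligand; and Ccl8 encodes MCP-2, which in the mouse also acts through CCR8. Macrophages both make these chemokines and carry receptors for them. IFN-γ, a T cell and natural killer cell cytokine, arms macrophages against microbes, whereas IL-4, a cytokine of allergic and repair responses, signals through STAT6.

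The members lie on the plus strand of chromosome 11 (GRCm38, GENCODE M21), each with 3 exons, in the order Ccl2 (82035571 to 82037453), Ccl7 (82045712 to 82047525), Ccl12 (82101845 to 82103400) and Ccl8 (82115185 to 82116799). To show how closely the paralogues resemble each other, 60 bases of exon 2 are given for each gene from the GRCm38 genome, 5′ to 3′ on the plus strand, with the codons of the adjacent cysteine pair in capitals.
Ccl2 (chr11:82036494-82036553): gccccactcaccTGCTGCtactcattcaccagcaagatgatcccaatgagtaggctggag
Ccl7 (chr11:82046526-82046585): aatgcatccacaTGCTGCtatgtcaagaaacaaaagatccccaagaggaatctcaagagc
Ccl12 (chr11:82102622-82102681): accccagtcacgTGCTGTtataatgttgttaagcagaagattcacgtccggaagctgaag
Ccl8 (chr11:82116044-82116103): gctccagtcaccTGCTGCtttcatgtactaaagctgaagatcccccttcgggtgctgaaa
Over the aligned coding sequence, Ccl2 and Ccl7 were the closest pair at 81.0% identity, and Ccl7 and Ccl12 the most distant at 73.8%. The longest run of bases shared between whole transcripts, at any position, was 23 bases, between Ccl2 and Ccl7. How the counting treated reads with more than 1 match is not given in the sources used here. The predicted gene Gm17268 overlaps Ccl2 on the opposite strand and had 0 counts in every library.

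RefSeq promoter windows (GRCm38.p6) were available for Ccl12 and Ccl8, which are also the members with the sharpest rise under IFN-γ in the WT libraries. The 250 bases before each start site follow, 5′ to 3′ on the plus strand, with the TATA box match TATAAA in capitals.
Ccl12 (chr11:82101595-82101844): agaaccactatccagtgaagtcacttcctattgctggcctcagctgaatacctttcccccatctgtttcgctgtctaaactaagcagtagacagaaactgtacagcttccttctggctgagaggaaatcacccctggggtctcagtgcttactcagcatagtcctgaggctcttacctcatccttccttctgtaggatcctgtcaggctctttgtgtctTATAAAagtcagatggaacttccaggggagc
Ccl8 (chr11:82114935-82115184): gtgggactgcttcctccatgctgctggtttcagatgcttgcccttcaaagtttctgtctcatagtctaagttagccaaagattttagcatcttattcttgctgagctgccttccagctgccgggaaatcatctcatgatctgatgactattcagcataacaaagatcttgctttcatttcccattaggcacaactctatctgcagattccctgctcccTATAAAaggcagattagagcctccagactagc
The match begins 31 bases before the start site of Ccl12 and 32 bases before that of Ccl8. Of 32851 promoter windows of the same length, 12.4% hold TATAAA on either strand. The other motifs sought on both strands were the GC box GGGCGG, the AP-1 site TGANTCA, the STAT site TTCNNNGAA, the STAT6 site (TTC and GAA with any 4 bases between them), the interferon-stimulated response element (GAAA and GAAA with any 2 bases between them) and the NF-κB consensus. Their letters are not in either window, and 32.7%, 6.75%, 7.02%, 5.85%, 2.98% and 7.25% of all windows hold them, in that order.

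Library totals ran from 21287725 to 32717379 counts. Levels are given as CPM, each count relative to the TMM-scaled total of its library in a common unit. Irf8 was at 65.7 to 513 CPM in the WT libraries and at 139 to 1200 CPM in the CKO libraries, and in each treatment both CKO libraries were above both WT libraries. What the label CKO means for Irf8 was not tested, since the counts are per gene and do not separate parts of a transcript. Every direction between genotypes below is one between libraries labelled WT and libraries labelled CKO. The macrophage gene Lyz2 was at 5840 to 11900 CPM in the libraries labelled WT and at 12.6 to 28 CPM in those labelled CKO. The other 7 macrophage markers summed to 2890 to 2990 CPM in untreated WT and 3900 to 4280 CPM in untreated CKO libraries. The sums were 3020 to 3170 against 4560 to 4760 CPM under IFN-γ, and 3110 to 3280 against 3470 to 4110 CPM under IL-4. By untreated means Adgre1, Csf1r and Mertk were higher in CKO, and Cd68, Cd14, Itgam and Fcgr1 lower. Untreated CKO library 1 stood apart, with 1.52% of counts on mitochondrial genes against at least 2.12% in every other library. The member calls, the interactions, and most list counts and named list genes of the untreated genotype comparison are also given without it.

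In untreated cells, Ccl2, Ccl7 and Ccl12 were lower in the libraries labelled CKO, by 8.21-fold, 13.6-fold and 15.6-fold, and Ccl8 was not detected in either genotype. Ccl2 was at 214 and 356 CPM in the WT libraries (285 ± 99.8, SD, n = 2) and at 23.2 and 46.1 CPM in the CKO libraries (34.6 ± 16.2). Ccl7 was at 67.6 and 136 CPM in WT against 5.46 and 9.29 CPM in CKO. Ccl12 was at 5.98 and 8.73 CPM in WT and at 0.152 and 0.721 CPM in CKO, where it rested on 4 and 25 counts. In each of these genes both CKO libraries were below both WT libraries, as in 30.1% of all tested genes. The log2 difference was -3.04 ± 0.65 (SE) for Ccl2, with an adjusted p of 0.0222 in edgeR's quasi-likelihood test with Benjamini-Hochberg adjustment over all tested genes. For Ccl7 it was -3.77 ± 0.71 (edgeR adjusted p = 0.0141), and for Ccl12 -3.96 ± 1.1 (edgeR adjusted p = 0.045). Thus 3 of the 3 members with counts were called lower, against 9.37% of all tested genes. Ccl8 had 0 counts in the 4 untreated libraries, which allows up to 0.0518 CPM in the WT group and 0.0492 CPM in the CKO group.

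These untreated calls depended on single libraries. No setting changed a sign, but with groups that do not overlap, leaving out a library could hardly do so. Without untreated CKO library 1 no member was called (log2 difference of Ccl2 -2.62, Ccl7 -3.44 and Ccl12 -3.33, with edgeR adjusted p of 0.157, 0.12 and 0.259), and none was called without WT library 2 (adjusted p of 0.0884, 0.06 and 0.145). Without WT library 1 the call of Ccl7 alone was kept, and without CKO library 2 those of Ccl2 and Ccl7. Over all genes, leaving out either WT library or CKO library 1 took the calls of this comparison from 2927 to between 866 and 914, and leaving out CKO library 2 took them to 5034.

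**Figure D1:**
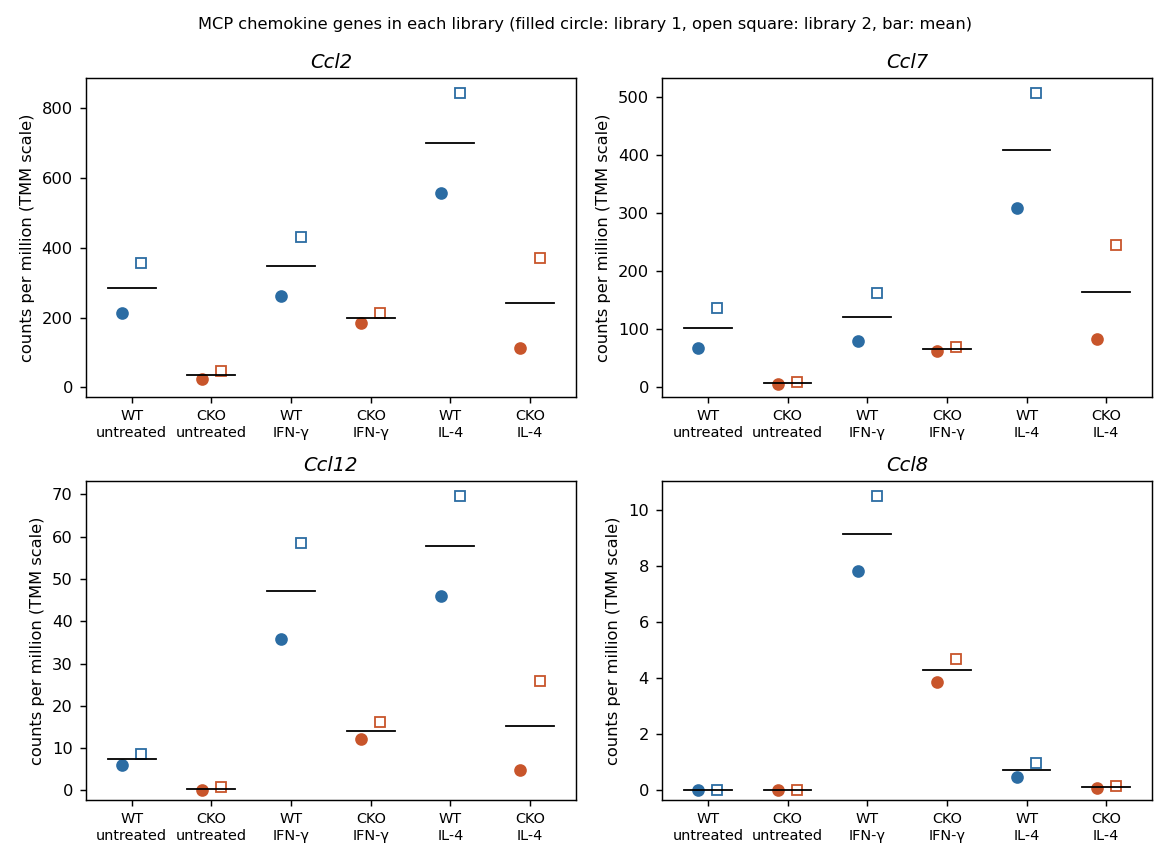
Level of each MCP gene in every library, in CPM with TMM-scaled totals on a linear axis from 0 for each gene, by genotype label and treatment; circles are library 1, squares library 2 and lines are group means of 2 libraries. Within each treatment both CKO libraries sit below both WT libraries for every member with counts, and Ccl8 has no count in the 4 untreated libraries.

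Under IFN-γ, Ccl8 was the member called lower in the libraries labelled CKO, by 2.14-fold. It was at 7.83 and 10.5 CPM in the WT libraries (9.15 ± 1.87, SD, n = 2) and at 3.88 and 4.68 CPM in the CKO libraries (4.28 ± 0.572). The log2 difference was -1.10 ± 0.25, with an edgeR adjusted p of 0.0144. Ccl2 was at 262 and 432 CPM in WT against 185 and 212 CPM in CKO, Ccl7 at 80.3 and 163 against 62.8 and 69.4 CPM, and Ccl12 at 35.9 and 58.4 against 12.1 and 16.1 CPM. All 4 members had both CKO libraries below both WT libraries, as had 30.3% of all tested genes. The log2 differences of Ccl2, -0.80 ± 0.60 (95% interval -2.23 to 0.62), Ccl7, -0.88 ± 0.62 (-2.34 to 0.58), and Ccl12, -1.74 ± 0.70 (-3.40 to -0.08), did not pass the test, with edgeR adjusted p of 0.413, 0.382 and 0.137. So 1 of 4 members was called lower, against 8.01% of all tested genes. The call of Ccl8 was lost without WT library 2 (log2 difference -0.86), without CKO library 1 (-0.99) and without CKO library 2 (-1.23). Fewer genes were called over all genes in these fits too. With the IFN-γ groups alone in the fit, Ccl12 was also called (log2 difference -1.76, adjusted p = 0.00546).

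Under IL-4, the call was again on Ccl8, which was 5.83-fold lower in the libraries labelled CKO but scarce in both genotypes. It was at 0.483 and 0.98 CPM in WT and at 0.104 and 0.147 CPM in CKO, the latter from 3 and 5 counts. The log2 difference was -2.54 ± 0.53, with an edgeR adjusted p of 0.0342. The abundant members had wide spreads here. Ccl2 was at 556 and 844 CPM in WT (700 ± 204, SD, n = 2) and at 113 and 372 CPM in CKO (243 ± 183). Ccl7 was at 309 and 507 CPM in WT against 82.6 and 246 CPM in CKO, and Ccl12 was at 46.1 and 69.6 CPM in WT against 4.78 and 25.9 CPM in CKO. No CKO library reached a WT library in any member, as for 25.4% of all tested genes. The log2 differences were -1.53 ± 0.61 for Ccl2, -1.31 ± 0.62 for Ccl7 and -1.91 ± 0.70 for Ccl12, with edgeR adjusted p of 0.323, 0.417 and 0.272. Thus 1 of 4 members was called lower, against 1.55% of all tested genes. Ccl8 was no longer called when WT library 2 (log2 difference -1.87), CKO library 1 (-2.34) or CKO library 2 (-2.8) was left out. With the IL-4 groups alone in the fit it was not called either (edgeR adjusted p = 0.0751). Without WT library 2 or CKO library 1, fewer genes were called over all genes too. Without CKO library 2, Ccl12 was called (log2 difference -3.58, adjusted p = 0.00694).

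Transcripts that mark other marrow cells also differed between the genotype labels, and their part in the MCP differences was not tested. The 5 monocyte markers (Ly6c2, Ccr2, Cx3cr1, Hp and F13a1) summed to 259 to 275 CPM in untreated WT and to 552 to 594 CPM in untreated CKO libraries, to 115 to 150 against 240 to 246 CPM under IFN-γ, and to 135 to 140 against 212 to 253 CPM under IL-4. F13a1 was the largest of these in untreated cells (mean 244 against 494 CPM). Under IFN-γ Ccr2 was at 88.2 against 88.3 CPM, and the other 4 summed to 39.5 to 49.3 against 153 to 156 CPM. The 8 neutrophil markers summed to 38.6 to 45.1 against 158 to 287 CPM in untreated cells, to 52.7 to 65.6 against 368 CPM in both CKO libraries under IFN-γ, and to 29.5 to 38.5 against 155 to 174 CPM under IL-4. S100a8 (mean 10.3 against 69.9 CPM) and S100a9 (14.1 against 85.2 CPM) were the largest of these in untreated cells. Ly6g did not pass the filter on low counts. The 4 endothelial markers summed to 23.5 to 26 against 8.46 to 10 CPM in untreated cells, a sum carried by Kdr (mean 22.6 against 7.22 CPM). Cdh5 went the same way at 0.69 against 0.162 CPM, Pecam1 was at 1.49 against 1.85 CPM, and Tek had 0 counts in untreated cells. The 4 dendritic cell markers, at no more than 3.26 CPM elsewhere, summed to 46.5 to 55 CPM in WT and to 7.29 to 8.73 CPM in CKO under IFN-γ. That sum was carried by Clec9a (mean 48.2 against 5.99 CPM), and Xcr1 went the same way at 2.02 against 0.842 CPM. Zbtb46 (0.264 against 0.841 CPM) and Flt3 (0.235 against 0.337 CPM) went the other way and were scarce in both. Markers of fibroblasts, mast cells and lymphocytes, the first of which are strong makers of MCPs in other settings, summed to at most 0.867, 0.743 and 0.139 CPM in any library. In bulk RNA, fewer cells that make a transcript and less of it per cell cannot be told apart.

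IFN-γ raised Ccl12 and Ccl8 in the WT libraries, whereas Ccl2 and Ccl7 did not pass the test. Ccl12 went from 5.98 and 8.73 CPM to 35.9 and 58.4 CPM, a 6.41-fold increase (log2 change 2.68 ± 0.74, edgeR adjusted p = 0.0363). Ccl8 went from 0 counts to 480 counts over the WT group, at least 178-fold higher against a floor of 3 counts over the untreated group (edgeR adjusted p = 1.02e-06). Ccl2 and Ccl7 had overlapping groups, with log2 changes of 0.28 ± 0.60 (95% interval -1.13 to 1.70, edgeR adjusted p = 0.803) and 0.26 ± 0.61 (-1.19 to 1.71, adjusted p = 0.827). Thus 2 of 4 members rose, against 12.4% of all tested genes. The call of Ccl12 was lost without any 1 of the compared libraries, with adjusted p from 0.0502 to 0.185 and a log2 change from 2.28 to 2.98. It was also lost, at an adjusted p of 0.0515, when untreated CKO library 1 was left out of the shared spread. Ccl8 was called in all 5 of these fits.

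In the libraries labelled CKO, all 4 members rose under IFN-γ, against 14.7% of all tested genes. Ccl2 went from 23.2 and 46.1 CPM to 185 and 212 CPM, a 5.73-fold increase (log2 change 2.52 ± 0.64, edgeR adjusted p = 0.0251). Ccl7 went from 5.46 and 9.29 CPM to 62.8 and 69.4 CPM, or 8.87-fold (log2 change 3.15 ± 0.70, edgeR adjusted p = 0.0141). Ccl12 went from 0.152 and 0.721 CPM to 12.1 and 16.1 CPM, or 29.8-fold (log2 change 4.90 ± 1.0, edgeR adjusted p = 0.0116). Ccl8 went from 0 to 229 counts over the group, at least 87.1-fold higher (edgeR adjusted p = 4.25e-06). The treated CKO libraries lay below the treated WT libraries in all 4 genes even so. Without untreated CKO library 1 only the call of Ccl8 was kept, the others having adjusted p of 0.147, 0.102 and 0.0898 for Ccl2, Ccl7 and Ccl12, and the same 3 calls were lost without CKO IFN-γ library 2 (0.0953, 0.0568 and 0.0513). Ccl2 was also lost without CKO IFN-γ library 1 (0.0749) and Ccl12 without untreated CKO library 2 (0.0509).

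Among the WT groups the mean levels of Ccl2, Ccl7 and Ccl12 were highest under IL-4, although Ccl12 overlapped its IFN-γ group, with 2 of 4 members past the test, against 6.64% of all tested genes called higher. Ccl12 rose from 5.98 and 8.73 CPM to 46.1 and 69.6 CPM, or 7.87-fold (log2 change 2.98 ± 0.75, edgeR adjusted p = 0.0426). Ccl8 went from 0 to 39 counts over the group, at least 15-fold higher (edgeR adjusted p = 0.00123). In Ccl2 and Ccl7 both IL-4 libraries were above both untreated libraries, as in 30.9% of all tested genes, but the changes of 1.30 ± 0.61 and 2.01 ± 0.63 on the log2 scale had edgeR adjusted p of 0.254 and 0.0962. Ccl7 was called by DESeq2 (adjusted p = 0.018) and by edgeR when the test was limited to genes with a mean of at least 5 CPM (0.0332). With a block for the library number, whose meaning the labels do not give, edgeR called Ccl2 (0.0252) and Ccl7 (0.00154). With the block within genotype it called Ccl7 (0.0152) and not Ccl2. The call of Ccl12 was lost without any 1 of the compared libraries and with untreated CKO library 1 left out of the shared spread, at adjusted p from 0.0594 to 0.238. Ccl8 was called in all 5 of these fits.

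In the libraries labelled CKO, all 4 members passed the test for a rise under IL-4, against 11.2% of all tested genes. Ccl7 rose the furthest of the abundant members, from 5.46 and 9.29 CPM to 82.6 and 246 CPM, or 22.1-fold (log2 change 4.47 ± 0.73, edgeR adjusted p = 0.00545). Ccl2 rose 6.99-fold to 113 and 372 CPM (log2 change 2.80 ± 0.65, edgeR adjusted p = 0.0216), and Ccl12 rose 32.7-fold to 4.78 and 25.9 CPM (log2 change 5.03 ± 1.0, edgeR adjusted p = 0.0137). Ccl8 reached 8 counts over the group, at least 2.58-fold above the floor (edgeR adjusted p = 0.0439), and its call was lost without any 1 of the 4 compared libraries (adjusted p from 0.065 to 0.175). Without untreated CKO library 1 no member was called, with adjusted p of 0.144 for Ccl2, 0.0561 for Ccl7, 0.11 for Ccl12 and 0.137 for Ccl8. With only these 2 groups in the fit, Ccl2 (0.0624) and Ccl12 (0.0508) were not called, Ccl8 was not tested, and Ccl7 was called (0.0136).

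**Figure D2:**
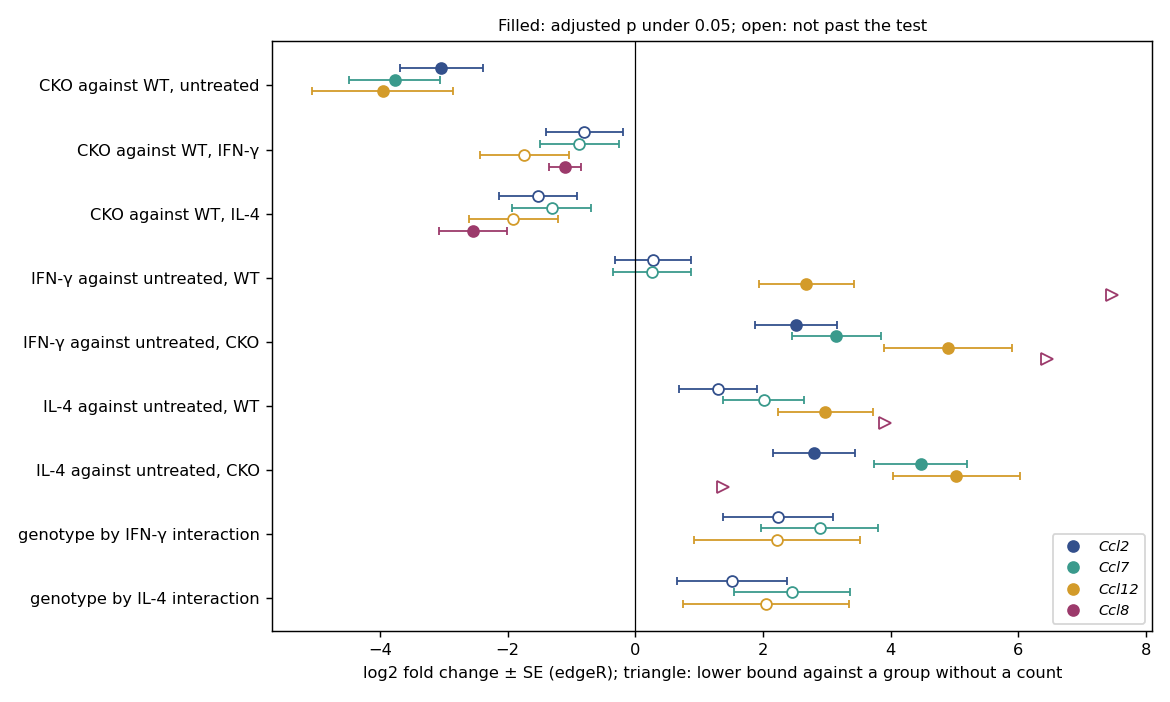
Log2 fold change of each MCP gene in the genotype, treatment and interaction comparisons, ± SE from edgeR's quasi-likelihood fit; filled points passed an adjusted p of 0.05, and triangles are lower bounds of Ccl8 against untreated groups with 0 counts. The genotype differences lie below 0 throughout, and those of Ccl2, Ccl7 and Ccl12 lie closer to 0 in treated than in untreated cells. No interaction passed the test.

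Whether the cytokine responses differed between the genotype labels was tested as an interaction, the response in CKO minus that in WT on the log2 scale. For IFN-γ it was 2.23 ± 0.86 in Ccl2 (95% interval 0.20 to 4.27, edgeR adjusted p = 0.331), 2.89 ± 0.92 in Ccl7 (0.73 to 5.05, adjusted p = 0.219) and 2.22 ± 1.3 in Ccl12 (-0.95 to 5.39, adjusted p = 0.593). No member passed edgeR's threshold in this fit, which has no block for the library number. An unadjusted p under 0.05 was found in 2 of 3, as in 13.1% of all tested genes, and DESeq2 called 1, Ccl7, at an adjusted p of 0.0332. With the library number as a block, edgeR called Ccl2 (adjusted p = 0.0265) and Ccl7 (0.00573), and with the block within genotype Ccl7 alone (0.0371). The labels do not say what the library numbers mark. For IL-4 it was 1.51 ± 0.86 in Ccl2 (-0.51 to 3.53, edgeR adjusted p = 0.773), 2.46 ± 0.91 in Ccl7 (0.32 to 4.60, 0.773) and 2.05 ± 1.3 in Ccl12 (-1.11 to 5.22, 0.774). Here edgeR called 0 of 3 and DESeq2 0, and 1 had an unadjusted p under 0.05, as had 6.02% of all tested genes. Over all genes edgeR called 2.72% in the IFN-γ interaction and 0.0368% in the IL-4 interaction. When untreated CKO library 1 was left out, the values for Ccl2, Ccl7 and Ccl12 were 1.79, 2.54 and 1.57 for IFN-γ and 1.09, 2.13 and 1.43 for IL-4, and edgeR called none. Ccl8 has no estimate in either, because both untreated groups were at 0 counts. The interactions share the untreated groups with each other and with the responses above.

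Ordered by mean level, Ccl2 and Ccl7 were highest in IL-4-treated WT and lowest in untreated CKO libraries, and in both genes these 2 groups overlapped no neighbour. Between them, IFN-γ-treated WT, untreated WT, IL-4-treated CKO and IFN-γ-treated CKO followed for Ccl2, each overlapping the next. For Ccl7, IL-4-treated CKO stood ahead of IFN-γ-treated WT, and neighbours again overlapped down to IFN-γ-treated CKO. Ccl12 had a different order: IL-4-treated and IFN-γ-treated WT overlapped at the top, IL-4-treated and IFN-γ-treated CKO overlapped below them, and untreated WT and then untreated CKO followed without overlap. Ccl8 fell from IFN-γ-treated WT through IFN-γ-treated CKO and IL-4-treated WT to IL-4-treated CKO with no overlap between neighbours.

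The mix of MCP transcripts was compared per kilobase of exon (813, 801, 537 and 511 bases for Ccl2, Ccl7, Ccl12 and Ccl8). Ccl2 was the largest share of the summed level in every library, from 55.3% to 81.4%. Its share was 80.1 to 81.4% in untreated CKO and 70.2 to 73.4% in untreated WT libraries, and under IL-4 it was 57.6 to 59.1% in WT and 55.3 to 56.3% in CKO. Ccl7 made up 16.7 to 19.1% in untreated CKO and 23.5 to 27.2% in untreated WT, and rose under IL-4 to 37.8 to 41% in CKO and 33.4 to 35.1% in WT. Ccl12 made up 12.6 to 13.2% in IFN-γ-treated WT libraries, its highest share, against 2.61 to 3.1% in untreated WT, and 6.7 to 7.76% in IFN-γ-treated CKO against 0.794 to 1.93% in untreated CKO. Ccl8 held 2.38 to 3.04% under IFN-γ in WT and 2.26 to 2.37% in CKO, and no more than 0.106% under IL-4. These shares are a description, with no test. The libraries came from an exome capture kit, so the probes of each gene also enter its share. Which gene has the most transcripts is therefore not settled by them. In IL-4-treated CKO cells the level of Ccl2 was 113 and 372 CPM, whereas Ccl7 per kilobase was 74 and 67.2% of Ccl2 in libraries 1 and 2. Ccl12 was less steady, at 6.39 and 10.5% of Ccl2 in the same libraries, 1.65-fold apart, and 2.39-fold apart in untreated CKO cells.

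**Figure D3:**
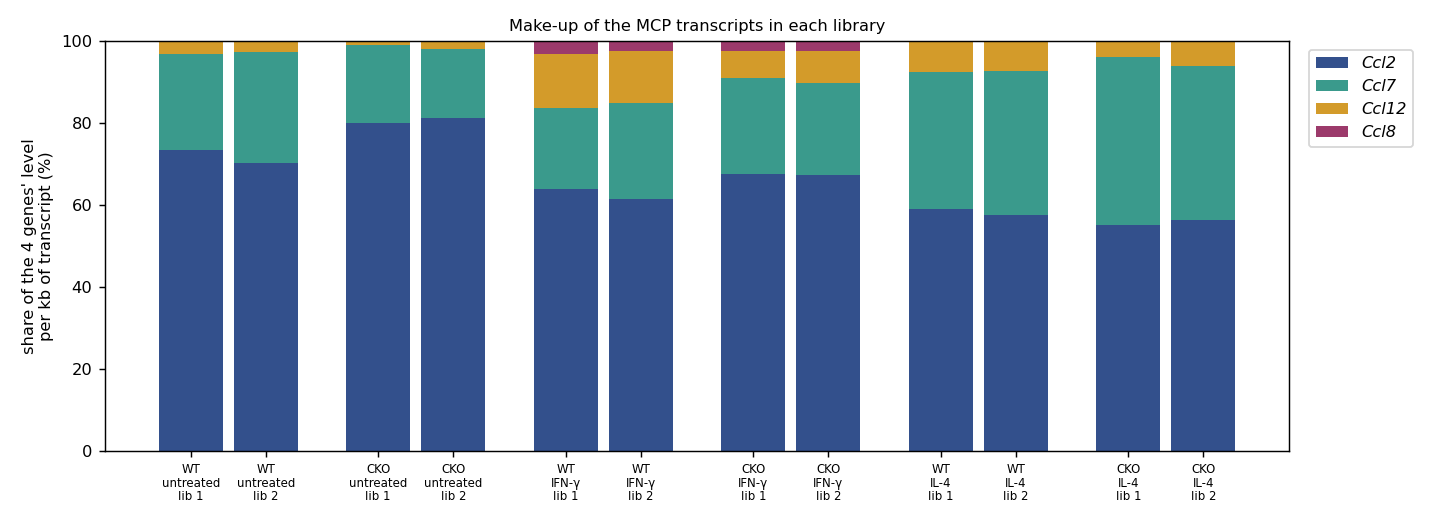
Share of each MCP gene in the summed level per kilobase of exon, in percent, for each of the 12 libraries; stacked bars run from 0 to 100. Ccl2 is the largest share throughout, Ccl7 is widest in the IL-4 libraries, and Ccl12 is widest in the IFN-γ libraries labelled WT. The capture probes of each gene also enter its share.

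The spread between the libraries of a group was wide for the MCP genes and ran one way. Library 2 was above library 1 in 6 of 6 groups for Ccl2, Ccl7 and Ccl12, and in the 4 groups with counts for Ccl8. Of all tested genes, 5.61% were higher in library 2 in all 6 groups and 5.92% were lower in all 6. The gap was widest in IL-4-treated CKO cells, at 1.71 for Ccl2, 1.58 for Ccl7 and 2.42 for Ccl12 on the log2 scale, where the median absolute gap of all tested genes was 0.20. It was narrowest in IFN-γ-treated CKO cells, at 0.19, 0.14 and 0.42 against a median of 0.11. In untreated CKO cells Ccl12 differed by 1.83 and Ccl2 by 0.99 against a median of 0.26. In the WT groups the gaps of Ccl2 ran from 0.60 to 0.73, those of Ccl7 from 0.72 to 1.02 and those of Ccl12 from 0.54 to 0.70. The labels do not say what the numbers 1 and 2 mark.

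**Figure D4:**
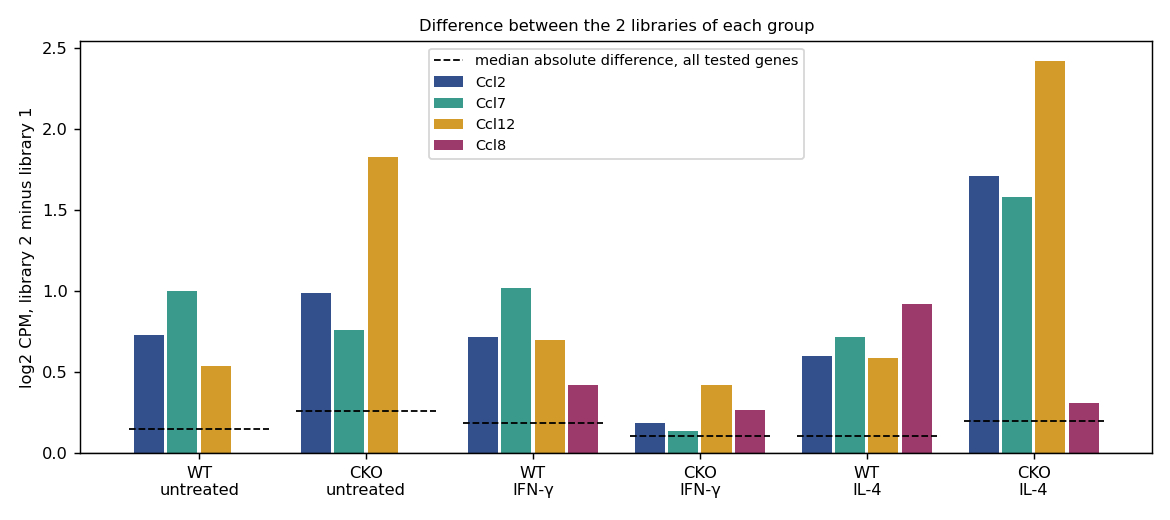
Log2 difference of library 2 minus library 1 within each group for the MCP genes (bars), beside the median absolute difference of all tested genes in that group (dashed lines). The differences of Ccl2, Ccl7 and Ccl12 are above 0 in all 6 groups, and the widest are in IL-4-treated CKO cells.

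Ccl2, Ccl7 and Ccl12 moved together over the 12 libraries, and Ccl8 less so. On log2 CPM with a prior count of 2, Pearson's r was 0.97 for Ccl2 with Ccl7 (Spearman's rho 0.92), 0.95 for Ccl2 with Ccl12 (0.90) and 0.92 for Ccl7 with Ccl12 (0.80). Without the 2 libraries farthest from the median these values of r were 0.89, 0.82 and 0.70. Deviations from the group means, which hold only the difference between the 2 libraries of each group, gave r of 0.98, 0.97 and 0.90. For Ccl8 r was 0.45 with Ccl2, 0.37 with Ccl7 and 0.66 with Ccl12, and 0.09, -0.11 and 0.58 without the 2 farthest libraries. Its deviations gave r of 0.57, 0.62 and 0.48. These correlations are a description, since the libraries share treatments, genotype labels and numbers.

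The 5 genes with the pattern most like each member, by Pearson's r of log2 CPM over 12 libraries among 8599 candidates, also set Ccl8 apart. For Ccl2 they were Mrps18b (r = 0.985), Slmo2, Sars, Tsr2 and Fam98a (0.96). For Ccl7 they were Dnajc11 (0.978), Mrps18b, Slmo2, Timm8a1 and Pdzd11, and for Ccl12 Tars (0.986), Eif6, Tsr1, Ccnyl1 and Mrps18b. Mrps18b, a protein of the mitochondrial ribosome, was named for all 3 members; it moved over a narrower range, from a mean of 13.8 CPM in untreated CKO to 33.5 CPM in IL-4-treated WT cells. For Ccl8 they were Rhoh (0.983), Slamf8, Ptcd2, Lap3 and H13 (0.97). Slamf8, a myeloid surface protein, went from 1.27 to 339 CPM under IFN-γ in WT and from 0.406 to 233 CPM in CKO. By Spearman's rho instead, 2 of the 5 named genes stayed for Ccl2 and 1 each for Ccl7, Ccl12 and Ccl8.

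The lists that follow hold other genes of the MCP pathway. Over all tested genes, 8.6% were called higher and 9.37% lower in untreated CKO than in untreated WT libraries, 10.4% and 8.01% under IFN-γ, and 1.41% and 1.55% under IL-4. The responses called 12.4% higher and 11.8% lower for IFN-γ in WT, 14.7% and 11.9% for IFN-γ in CKO, 6.64% and 5.59% for IL-4 in WT, and 11.2% and 11.3% for IL-4 in CKO.

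Of 7 receptors and decoys of MCP chemokines, 4 were tested. Ccr8 and the decoy Ackr1 had 0 counts in every library, and the decoy Ackr2 had at most 1 count in any. In untreated cells 3 of 4 were called higher and 1 lower in the libraries labelled CKO, against 8.6% and 9.37% of all tested genes. Under IFN-γ 3 of 4 rose and 1 fell in each genotype (12.4% and 11.8% in WT, 14.7% and 11.9% in CKO). Without untreated CKO library 1 the untreated counts were 1 higher and 1 lower, against 2.91% and 2.57% of all genes in that fit, and under IFN-γ 3 rose and 0 fell in CKO. Ccr2, the main MCP receptor, was at 16.9 and 15.7 CPM in untreated WT and at 55.6 and 35.3 CPM in untreated CKO libraries (log2 difference 1.47 ± 0.20, edgeR adjusted p = 0.000772), and without CKO library 1 the difference was 1.12 (adjusted p = 0.00175). Under IFN-γ it reached 75.5 and 101 CPM in WT and 93.2 and 83.5 CPM in CKO, with overlapping groups. Its rise was 5.4-fold in WT and 1.95-fold in CKO, and the interaction was -1.47 ± 0.27 (edgeR adjusted p = 0.0149), or -1.14 without untreated CKO library 1 (0.0155). That call was lost without WT untreated library 1 (adjusted p = 0.0621) or 2 (0.0716), WT IFN-γ library 2 (0.065) or CKO IFN-γ library 2 (0.0883). Under IL-4 it was at 14.1 and 14.3 CPM in WT and at 30.8 and 33 CPM in CKO (log2 difference 1.16, edgeR adjusted p = 0.00878), a call that ended when WT library 1 (0.0894) or 2 (0.105) or CKO library 1 (0.0528) was dropped.

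Ccr1, a receptor for Ccl7, was lower in CKO libraries in each treatment, by 0.88, 1.11 and 0.88 on the log2 scale in untreated, IFN-γ-treated and IL-4-treated cells (edgeR adjusted p = 0.00274, 0.000325 and 0.00708). The IL-4 call of Ccr1 ended when WT library 1 (0.0752) or 2 (0.0672) or CKO library 1 (0.0999) was dropped, and its untreated call with only those groups in the fit (0.0512). The untreated difference of Ccr1 was -1.15 without CKO library 1 (adjusted p = 0.000312). Under IFN-γ Ccr1 rose 4.41-fold in WT and 3.75-fold in CKO. Ccr3, scarce at no more than 4.02 CPM, was 5.45-fold higher in CKO than in WT under IFN-γ (log2 difference 2.45 ± 0.39, edgeR adjusted p = 0.00121).

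**Figure D5:**
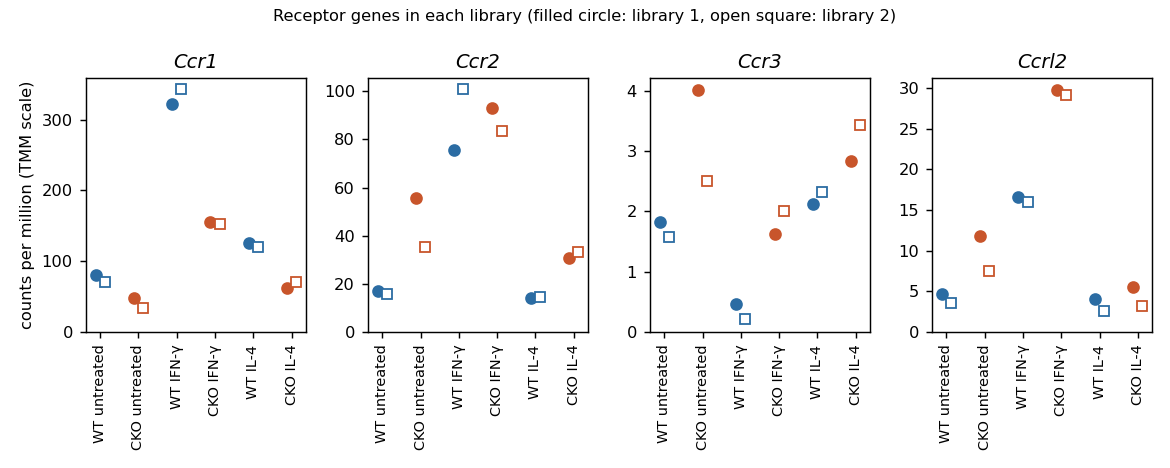
Level of the 4 tested receptor genes in every library, in CPM with TMM-scaled totals on a linear axis from 0 for each gene, by genotype label and treatment; circles are library 1 and squares library 2. Ccr2 is higher in untreated CKO than in untreated WT libraries and overlaps between genotypes under IFN-γ, and Ccr1 is highest in the IFN-γ libraries of each genotype.

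Of 17 transcription factors that act on MCP promoters, 5 were called higher and 0 lower in untreated CKO libraries, against 8.6% and 9.37% of all tested genes. Under IFN-γ 8 were higher and 0 lower (10.4% and 8.01%), and under IL-4 1 was higher and 0 lower (1.41% and 1.55%). The median log2 differences of the list were 0.28, 0.57 and 0.12, against 0, 0.02 and -0.01 over all tested genes. The untreated count was 1 higher and 0 lower without CKO library 1. IFN-γ raised 5 and lowered 2 of the 17 in WT (12.4% and 11.8% of all tested genes), and raised 8 and lowered 1 in CKO (14.7% and 11.9%). Irf1, an interferon-induced activator, rose 46.4-fold in WT and 29.5-fold in CKO. IL-4 raised 4 and lowered 2 in WT (6.64% and 5.59% of all tested genes), and raised 4 and lowered 3 in CKO (11.2% and 11.3%). Without untreated CKO library 1, IFN-γ raised 9 and lowered 1 in CKO, and IL-4 raised 3 and lowered 1.

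Among 12 brakes on NF-κB and on chemokine mRNA, 1 was higher and 1 lower in untreated CKO libraries, a share near that of all tested genes (8.6% and 9.37%), 5 higher and 1 lower under IFN-γ (10.4% and 8.01%), and 0 higher and 1 lower under IL-4 (1.41% and 1.55%). The lower one in untreated cells was Tnfaip3, the deubiquitinase A20, at 0.5 times its WT level (edgeR adjusted p = 0.00121, and 0.00626 without CKO library 1). Without that library the untreated count was 0 higher and 1 lower. Zc3h12a, the endonuclease Regnase-1, rose 2.98-fold in WT and 2.54-fold in CKO under IL-4. IFN-γ raised 2 and lowered 1 of the 12 in WT (12.4% and 11.8% of all tested genes), and raised 9 and lowered 0 in CKO (14.7% and 11.9%). In CKO, IL-4 raised 2 and lowered 3 (11.2% and 11.3%). These CKO counts were 7 and 0 for IFN-γ, and 2 each way for IL-4, without untreated CKO library 1. Of 9 upstream cytokines and sensors tested, 1 was higher and 1 lower in untreated CKO libraries, a share near that of all tested genes (8.6% and 9.37%). Under IFN-γ 3 were higher and 0 lower (10.4% and 8.01%), and under IL-4 1 was higher and 0 lower (1.41% and 1.55%).

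Of the 8 tested enzymes that mature or cleave MCP proteins, 3 were higher and 4 lower in untreated CKO libraries, against 8.6% and 9.37% of all tested genes, or 2 higher and 3 lower without CKO library 1. There were 3 each way under IFN-γ (10.4% and 8.01%), and 2 higher and 3 lower under IL-4 (1.41% and 1.55%). Mmp12, a macrophage elastase that cleaves MCP proteins, was lower in untreated CKO libraries (log2 difference -1.67 ± 0.18, edgeR adjusted p = 0.000181, and -1.82 without CKO library 1). It fell by 2.67 on the log2 scale under IFN-γ in WT and rose under IL-4, 3.75-fold in WT and 6.02-fold in CKO. Qpct, a glutaminyl cyclase that modifies the amino terminus of MCP proteins, was lower in CKO than in WT libraries under IFN-γ (log2 difference -2.15 ± 0.13, edgeR adjusted p = 1.99e-06). Other enzymes of the list were higher in CKO. Mmp8 was at 673 and 549 CPM in untreated CKO against 196 and 181 CPM in untreated WT libraries. Under IFN-γ the log2 differences of Mmp8 and Mmp9 were 1.42 and 2.66 (edgeR adjusted p = 1.22e-05 and 0.000133).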

How the data were processed

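RNA was sequenced from 12 libraries of bone marrow-derived macrophages, prepared with an Illumina RNA exome kit per the labels' protocols. The deposited values are raw counts per gene, whole numbers that the authors made, per the submitters' processing notes, with the tools CASAVA (1.8.2), TopHat2 (2.0.13) and Picard (1.97), and with HTSeq at version 0.6.1. Those notes name the builds GRCh38 and mm10 without their roles, and the table has mouse Ensembl identifiers. Neither the annotation release nor whether reads were counted by strand is given in the sources used here. An exome capture counts what its probes catch, so levels of different genes also reflect the probes.

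Groups came from the sample titles. Of 48440 genes, 22932 had no count and 16292 passed edgeR's filterByExpr. Counts were scaled by TMM and fitted by edgeR 4.0.16 under R 4.3.3, with a mean for each of the 6 groups, robust dispersions and 6 residual degrees of freedom. Comparisons used the quasi-likelihood F test, with Benjamini-Hochberg adjustment over all tested genes in each of 9 comparisons at a threshold of 0.05. The SE is the absolute log2 change over the square root of F and is approximate. Where a group had 0 counts, the fold is a lower bound against 3 counts over the group, which covers counting error only. Positions and transcript lengths came from GENCODE M21, to which the 4 identifiers matched, and 2 of the 4 members had an entry among the RefSeq promoters. The code was tested on simulated counts.

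The members, gene lists, markers and tests were chosen with earlier results of these data known. Items withheld for evaluation were left out of the lists and are not reported here. The 4 members were named throughout; of each list, receptors and the 3 genes with the smallest adjusted p in a comparison could be named; and for each member the 5 most similar genes with a mean log2 CPM of at least 3. The alternatives were DESeq2 1.42.0, its size factors in edgeR, no filter, a mean of at least 5 CPM, a log2 fold change of at least 1, only the compared groups, a block for the library number (over both genotypes, or within each), and each library left out. A fit without untreated CKO library 1 in comparisons that do not use it and the list counts without it where they use it were added after seeing the data.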

Additional observations from a re-analysis of the deposited data

Results flagged for a closer look

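The response of Ccr2 to IFN-γ differed between the genotype labels in the test of the difference itself. The interaction was -1.47 ± 0.27 on the log2 scale (edgeR adjusted p = 0.0149), from a 5.4-fold rise in the WT libraries and a 1.95-fold rise in the libraries labelled CKO, and all 4 treated libraries were above all untreated libraries of either genotype. The levels under IFN-γ overlapped between genotypes, and those of untreated cells did not. Leaving out 1 library at a time kept the sign and lost the call in 4 fits, at adjusted p from 0.0621 to 0.0883.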

How the results depend on the processing

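Of 418 refits of the members' 33 fold changes, 414 kept the sign, and the 4 that did not were of Ccl2 and Ccl7 in the IFN-γ response of WT, neither of which was called. Those were the treatment responses with overlapping groups. Where groups do not overlap, leaving out a library could hardly change a sign, so the kept signs add little there. Calls were not stable. Many of the fits without 1 library also called fewer genes over all genes, so lost calls are not particular to the members. Leaving out 1 library at a time, the number of members called was 0 to 2 for CKO against WT in untreated cells, 0 to 1 under IFN-γ and 0 to 1 under IL-4, 1 for IFN-γ and 1 for IL-4 in WT in each fit, 1 to 3 for IFN-γ in CKO, 0 to 3 for IL-4 in CKO and 0 in the interactions. Leaving untreated CKO library 1 out of the fit, 1 was called for IFN-γ and 1 for IL-4 in WT. Without the filter on low counts, 4 were called in the genotype comparison under IFN-γ, 4 under IL-4, 4 for IL-4 in WT, 3 in the IFN-γ and 3 in the IL-4 interaction; that fit gave every gene the same spread, so the members' own spread did not enter. With a mean of at least 5 CPM Ccl8 was not tested, and 0 were called between genotypes under IFN-γ, 0 under IL-4 and 1 for IFN-γ in WT. With only the compared groups, 2 were called between genotypes under IFN-γ, 0 under IL-4 and 1 for IL-4 in CKO. DESeq2 called 1 in the IFN-γ interaction.

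The library numbers are shared between groups. Deviations from the group means correlated over genes at 0.1 to 0.431 between groups of one genotype and at -0.005 to 0.256 across genotypes. With 2 numbers, and no label that says what they mark, the numbers were not taken as pairs. With the library number as a replicate block, 2 members were called between genotypes under IFN-γ, 3 under IL-4, 4 for IL-4 in WT and 2 in the IFN-γ interaction, and with the block within genotype 1 in the IFN-γ interaction. In the IL-4 response of WT the block gave adjusted p of 0.0252 for Ccl2 and 0.00154 for Ccl7, and within genotype 0.0673 and 0.0152. Of the 5 genes most like each member, 2, 1, 1 and 1 stayed by Spearman's rho for Ccl2, Ccl7, Ccl12 and Ccl8. Depth limits Ccl8 in untreated and IL-4-treated cells and Ccl12 in untreated CKO cells.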
